A study of Mus musculus with 8 samples.

Results

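The 8 messages described here, Trp53i11, Fbxw5, Rab7, Ccdc3, Creb3l1, Zfand2a, Xrcc3 and Iglon5, were among the most enriched RNAs in an hnRNP L immunoprecipitation from mouse embryonic stem cells. They were chosen by the measured ratio of immunoprecipitated to input RNA over 4 pairs of libraries, so the size of that ratio is given as a description, with no test. They are 8 of 23560 genes and 9 of 30769 transcript records, and all 8 passed the filter on low values that kept 11832 genes. The cells were pluripotent embryonic stem cells of a mixed C57BL/6X129Sv strain, kept under 20 passages with leukemia inhibitory factor and labelled p53-/- or p53+/+, the wild type. Each genotype was given 0.5 uM Adriamycin for 8 hours or left untreated, and each of the 4 cultures gave a library of hnRNP L immunoprecipitated RNA (RIP) and an input library of polyadenylated RNA, 1 library for each of the 8 groups. The labels do not say which part of Trp53 the p53-/- cells lack, nor whether they are 1 clone, and a control immunoprecipitation was not analysed here.

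HnRNP L is a mostly nuclear RNA-binding protein that prefers CA-rich stretches of RNA and is best known for its part in the choice of exons, polyadenylation sites and message stability. Immunoprecipitation of such a protein recovers the RNAs bound to it together with RNAs that stick to the beads or the antibody. Adriamycin (doxorubicin) blocks topoisomerase II and breaks DNA, and p53 is the transcription factor that answers such breaks. Levels are given in FPKM, a read level divided by transcript length and by the size of the library. A log2 value below is log2(scaled FPKM + 1), and a log2 ratio is the RIP value minus the input value of the same culture. Adding 1 FPKM understates the change of low genes such as Iglon5.

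Inputs held 5.67 to 7.48 Gb on annotated transcripts and RIP libraries 3.21 to 4.94 Gb, and the factors that put libraries on 1 scale ran from 1.32 to 1.45 in inputs, from 0.901 to 0.945 in RIP libraries labelled p53-/- and from 0.532 to 0.589 in RIP libraries labelled p53+/+. Annotated transcripts took an estimated 64.2% and 65.2% of the mapped material in RIP libraries labelled p53-/-, against 41.1% and 48.9% in RIP libraries labelled p53+/+. In inputs they took 87.6% to 90.6%. Only the inputs are described here as polyadenylated RNA, and the part of RNA selection in the RIP/input ratios was not tested. Every embryonic stem cell marker examined (10 of 10, Pou5f1, Nanog and Sox2 among them) was at 1 FPKM or more in every library. Trp53 RNA was present at 121 and 140 FPKM in inputs labelled p53-/-, against 173 and 236 FPKM in inputs labelled p53+/+, and at 124 and 122 FPKM against 32.1 and 57.4 FPKM in their RIP libraries, so its level did not check the genotype labels and the genotypes are named here as labelled. In bulk RNA, fewer cells of a type and less RNA per cell cannot be told apart, and with 1 library a group the p-values below measure only the spread between these libraries.

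The promoters of 4 of the messages are shown to compare a window without the marked motifs (Trp53i11) with windows that hold 1 match (Ccdc3), several (Xrcc3) or matches of both kinds (Zfand2a). Each is the 250 bases before the start of the gene on its own strand, from RefSeq on GRCm38.p6, and capitals mark CCAAT on either strand and the cAMP response element TGACGTCA. Of the 8 genes 7 had a promoter entry, all but Creb3l1. Trp53i11 lies at chr2:93187298-93187547 on the plus strand, Ccdc3 at chr2:5137526-5137775 on the plus strand, Zfand2a at chr5:139484492-139484741 on the minus strand and Xrcc3 at chr12:111813880-111814129 on the minus strand.
Trp53i11: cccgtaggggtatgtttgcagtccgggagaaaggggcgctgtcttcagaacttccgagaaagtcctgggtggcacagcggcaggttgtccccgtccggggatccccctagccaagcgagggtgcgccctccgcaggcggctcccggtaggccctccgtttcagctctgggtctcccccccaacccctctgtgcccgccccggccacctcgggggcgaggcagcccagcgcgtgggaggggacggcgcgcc
Ccdc3: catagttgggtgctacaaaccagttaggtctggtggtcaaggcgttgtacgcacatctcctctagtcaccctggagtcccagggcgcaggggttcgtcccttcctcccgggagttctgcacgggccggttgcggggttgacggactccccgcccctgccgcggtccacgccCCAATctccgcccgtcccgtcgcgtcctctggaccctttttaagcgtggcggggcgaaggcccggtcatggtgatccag
Zfand2a: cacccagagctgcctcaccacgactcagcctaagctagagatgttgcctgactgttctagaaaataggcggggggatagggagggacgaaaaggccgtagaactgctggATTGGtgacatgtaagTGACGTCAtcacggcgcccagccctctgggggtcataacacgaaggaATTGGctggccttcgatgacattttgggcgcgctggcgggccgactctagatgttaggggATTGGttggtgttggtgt
Xrcc3: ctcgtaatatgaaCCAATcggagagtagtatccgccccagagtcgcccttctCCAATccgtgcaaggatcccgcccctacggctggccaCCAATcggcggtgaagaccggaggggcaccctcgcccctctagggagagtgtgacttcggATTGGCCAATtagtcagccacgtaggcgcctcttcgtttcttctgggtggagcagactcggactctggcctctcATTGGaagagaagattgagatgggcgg
CCAAT was found in 5 of the 7 genes (Ccdc3, Iglon5, Rab7, Xrcc3 and Zfand2a) and in 33.8% of 32851 mouse promoter windows of the same length. The 7 genes are counted by gene, with a match in any window, and Rab7 had more than 1 window. The background is counted by window, from 27025 genes, so the units differ. The Zfand2a window was the one among the 7 genes with TGACGTCA, a sequence that 1.55% of all windows held. GGGCGG, the core of a GC box, was in 5 of the 7 genes and 32.7% of all windows. The p53 decamer consensus was in 0 of the 7 genes and 7.13% of all windows, CACACA in 0 and 17.9%, and GAANNTTC in 0 and 6.69%. All were searched on both strands, a match is only a run of letters, and these windows are DNA upstream of the genes, not the RNA that was immunoprecipitated.

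The position of the genes was uneven, with 4 of the 8 (Ccdc3, Fbxw5, Creb3l1 and Trp53i11) on chromosome 2, which carried 7.94% of the genes kept. Creb3l1 (chr2:91822485-91864327 on mm9, the build of the files) and Trp53i11 (chr2:93027741-93041914) were separated by 1163413 bases. Ccdc3 spanned chr2:5058822-5151912 and Fbxw5 chr2:25356298-25360990, far from that pair. Zfand2a (chr5:139947170-139960445), Rab7 (chr6:87950429-87963684), Iglon5 (chr7:50728277-50745393) and Xrcc3 (chr12:113041404-113052052) lay alone on their chromosomes. The messages were not long, with a median of 2494.5 bases against 2661 bases for the longest record of all genes kept, and Rab7 was represented by a record of only 624 bases.

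In the RIP libraries the 8 messages together held 0.787% of all FPKM in Adriamycin-treated p53-/- cells, 0.889% in untreated p53-/- cells, 2.90% in Adriamycin-treated p53+/+ cells and 1.40% in untreated p53+/+ cells. In the inputs of the same cultures they held 0.0171%, 0.0172%, 0.0321% and 0.0199%. Their median rank by FPKM among the genes kept lay between 116.5 and 281 in the RIP libraries, against 5204 to 6633.5 in the inputs. Single messages ranked from 7 to 1083 in the RIP libraries, against 1088 to 11446 in the inputs.

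**Figure D1:**
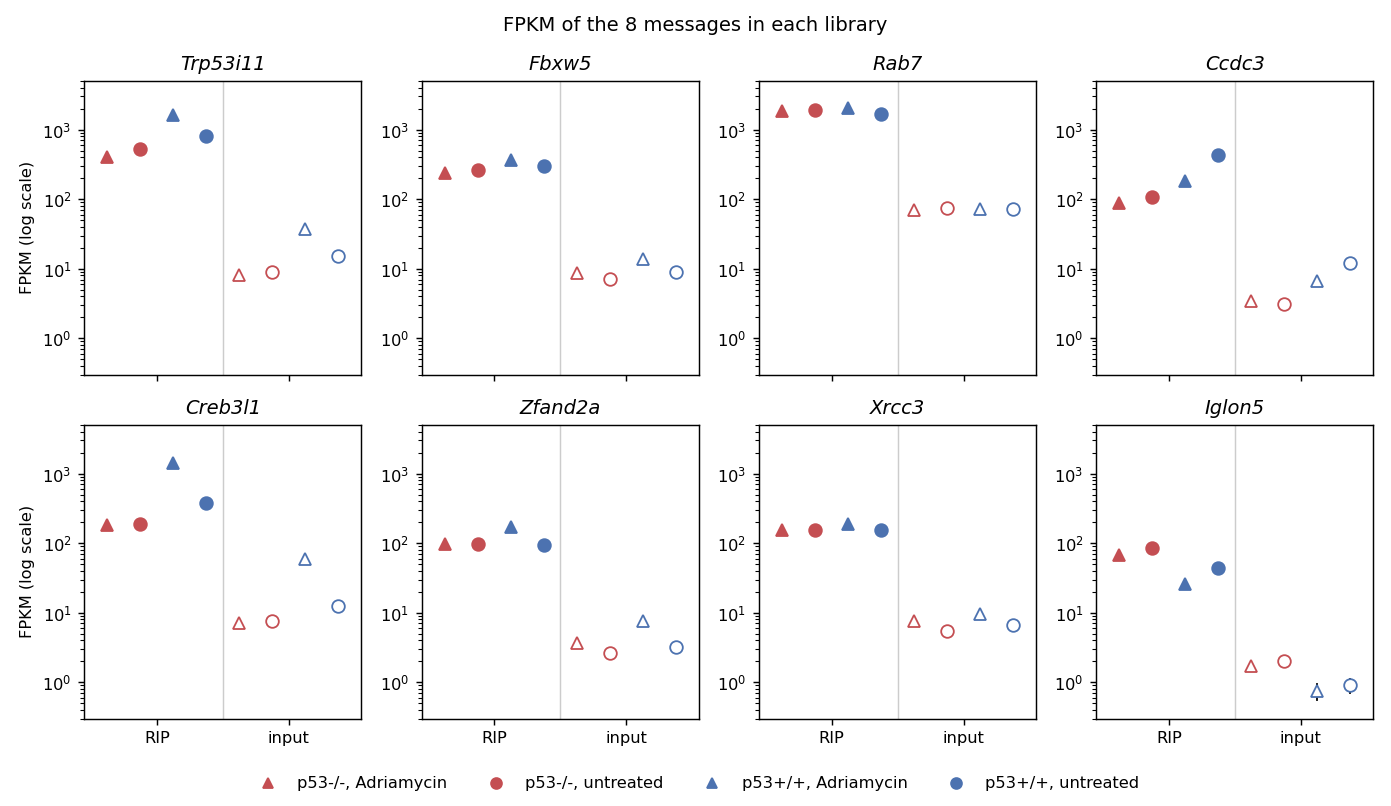
FPKM of each message on a log axis in the 4 RIP libraries (filled) and the 4 input libraries (open), with triangles for Adriamycin, circles for untreated cells, red for p53-/- and blue for p53+/+, and black bars for the authors' bounds where a gene has 1 record. Rab7 is the highest message in every library and Iglon5 the lowest in every input, and each RIP value lies far above its own input.

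Among the messages linked to stress and DNA damage, Trp53i11 encodes a membrane protein named for its induction by p53. It had 407 FPKM in the RIP library of Adriamycin-treated p53-/- cells, 526 in untreated p53-/- cells, 1613 in Adriamycin-treated p53+/+ cells and 805 in untreated p53+/+ cells. Its inputs in the same order of cultures were 8.04, 8.92, 36.9 and 15.3 FPKM. The 2 cultures labelled p53+/+ were the higher ones in RIP and in input, and the treated p53+/+ culture was the highest in each. Its RIP over input fold in FPKM as deposited was 50.6, 59.0, 43.7 and 52.7, higher than that of the other 7 messages in each pair.

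Creb3l1 encodes OASIS, a transcription factor held in the endoplasmic reticulum membrane until it is cut free. Its RIP libraries held 180 FPKM in Adriamycin-treated p53-/- cells, 188 in untreated p53-/- cells, 1442 in Adriamycin-treated p53+/+ cells and 373 in untreated p53+/+ cells. Inputs held 7.0, 7.72, 58.5 and 12.6 FPKM in that order. The treated p53+/+ culture stood apart from the other 3 in RIP and in input, while the folds of RIP over input as deposited stayed between 24.4 and 29.7 in all 4 pairs.

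Zfand2a encodes AIRAP, an AN1 zinc finger protein induced by arsenite that associates with the proteasome. It had 96.9 FPKM in RIP of Adriamycin-treated p53-/- cells, 97.2 in untreated p53-/- cells, 172 in Adriamycin-treated p53+/+ cells and 93.1 in untreated p53+/+ cells. The matching inputs were 3.72, 2.64, 7.49 and 3.24 FPKM. Only the treated p53+/+ culture was set apart, at the top of both fractions, and the other 3 lay close together. Zfand2a is also the 1 gene here with 2 records, of 3106 and 3095 bases. The longer record took 34.2% to 43.1% of the gene's FPKM in the 4 RIP libraries, and in inputs it took 46.8% and 47.1% in 2 libraries but 0.0296% and 0.0313% in the other 2. The split between the records was thus unsettled in the inputs, and the sum over them is used.

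Xrcc3 encodes a DNA repair protein of homologous recombination. RIP held 156 FPKM in Adriamycin-treated p53-/- cells, 156 in untreated p53-/- cells, 186 in Adriamycin-treated p53+/+ cells and 153 in untreated p53+/+ cells, against inputs of 7.51, 5.54, 9.59 and 6.56 FPKM in that order. Its levels varied little between cultures, and the treated culture was the higher one of each genotype in input. The Xrcc3 span overlaps Klc1, a kinesin light chain gene, whose log2 ratio averaged 1.41 (1.25 to 1.60 over the 4 pairs), far under that of Xrcc3. Whether reads were counted by strand is not given in the sources used here, so reads over the shared stretch could belong to either gene.

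Of the messages of protein turnover and membrane traffic, Fbxw5 encodes an F-box protein that brings substrates to cullin ubiquitin ligases. It had 242 FPKM in RIP of Adriamycin-treated p53-/- cells, 264 in untreated p53-/- cells, 362 in Adriamycin-treated p53+/+ cells and 304 in untreated p53+/+ cells. Inputs were 8.80, 7.18, 14 and 8.86 FPKM in that order. The RIP values of p53-/- cells lay under those of p53+/+ cells, and in input the treated p53+/+ culture was the highest. The Fbxw5 span overlaps C8g, a complement gene at 0.884 to 2.49 FPKM in RIP and a mean log2 ratio of 0.13 (-0.08 to 0.33 over the 4 pairs).

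Rab7 encodes the small GTPase of late endosomes and their fusion with lysosomes, and was the most abundant of the 8 in every library. Its RIP values were 1876 FPKM in Adriamycin-treated p53-/- cells, 1888 in untreated p53-/- cells, 2040 in Adriamycin-treated p53+/+ cells and 1662 in untreated p53+/+ cells. Inputs hardly differed, at 71.1, 74.4, 71.9 and 71.3 FPKM. By FPKM it ranked 31, 30, 7 and 17 among the genes kept in the RIP libraries in that order, against ranks of 1088 to 1211 in the inputs.

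Of the secreted and surface proteins, Ccdc3 encodes a coiled-coil protein that is secreted. It had 88.8 FPKM in RIP of Adriamycin-treated p53-/- cells, 109 in untreated p53-/- cells, 181 in Adriamycin-treated p53+/+ cells and 426 in untreated p53+/+ cells. The inputs were 3.42, 3.07, 6.68 and 12.0 FPKM in that order. The p53-/- cultures lay below the p53+/+ cultures in both fractions, and untreated p53+/+ cells were highest, the reverse of Creb3l1 and Trp53i11. Iglon5 encodes a cell adhesion molecule of the immunoglobulin superfamily from the IgLON family, studied mainly on neurons. It had 67.4 FPKM in RIP of Adriamycin-treated p53-/- cells, 84.2 in untreated p53-/- cells, 26.0 in Adriamycin-treated p53+/+ cells and 43.5 in untreated p53+/+ cells. Its inputs were 1.72, 2.04, 0.749 and 0.909 FPKM, and the authors' bounds of the 2 p53-/- inputs (1.46 to 1.98 and 1.74 to 2.34) did not meet those of the 2 p53+/+ inputs (0.550 to 0.947 and 0.70 to 1.12). Iglon5 was the 1 message that was higher in both p53-/- cultures in both fractions. The level those bounds stand for is not given in the file headers, and bounds often lay apart between these inputs. After scaling, 30.4% of records averaging at least 1 FPKM had p53-/- bounds apart and higher in untreated inputs, and 32.9% apart and lower. In Adriamycin-treated inputs the shares were 41.2% and 35.1%.

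After scaling, the mean log2 ratio over the 4 pairs was 6.46 ± 0.40 for Trp53i11, 5.68 ± 0.43 for Fbxw5, 5.60 ± 0.48 for Rab7 and 5.52 ± 0.64 for Ccdc3 (SD, n = 4 pairs). It was 5.47 ± 0.58 for Creb3l1, 5.31 ± 0.39 for Zfand2a, 5.19 ± 0.37 for Xrcc3 and 5.19 ± 0.21 for Iglon5. Apart from the step down from Trp53i11, neighbours in this order differed by less than their spread. The lowest value of any message in any pair was 4.71 and the highest 6.84, with a median of the means of 5.50 against 0.00 for all genes kept. All 8 exceeded 5, as did 0.118% of the genes kept (14 of 11832), and a ratio of 1 or more in every pair was met by 11.0% of them. Since this ratio chose the messages, those shares are background and no test is given.

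**Figure D2:**
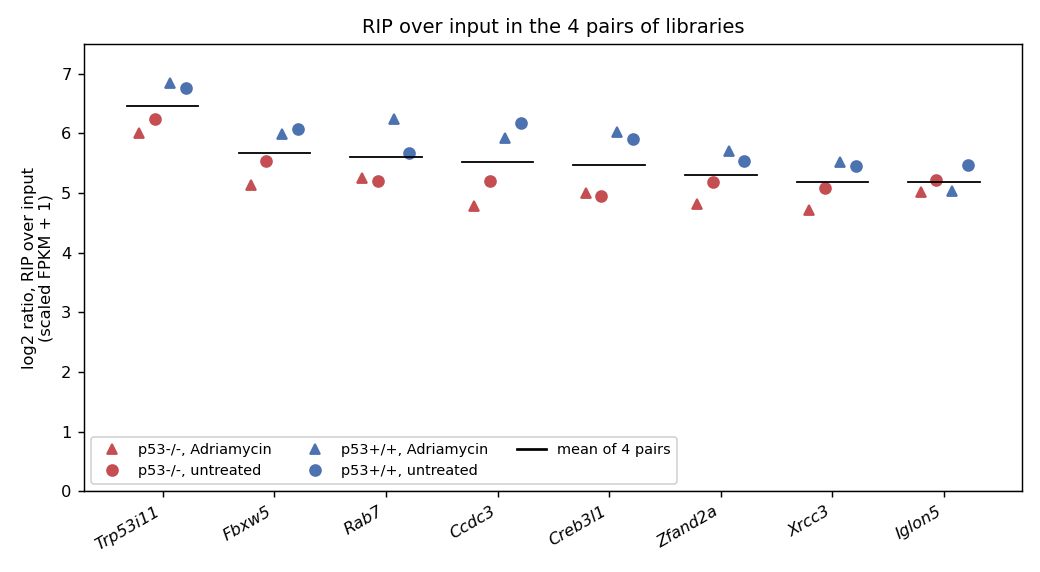
Log2 ratio of RIP over input for each message in the 4 pairs of libraries, with black lines for the mean of the pairs, on an axis that starts at 0. All 32 values lie between 4.71 and 6.84, and for 7 of the 8 messages both p53-/- pairs (red) lie under both p53+/+ pairs (blue), as in 30.8% of the genes kept.

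The genes just outside the set had similar ratios. Snora33, a small nucleolar RNA of 105 bases, ranked 1 with a mean log2 ratio of 6.80, but it was listed at 0 in every input (polyadenylated RNA) and in the RIP library of untreated p53-/- cells. Pcdhgc3, a clustered protocadherin, ranked 3 at 6.04 ± 0.64, and Rpl29, a ribosomal protein message, ranked 8 at 5.33 ± 0.39 (SD, n = 4 pairs). Both are uncertain, since clustered gamma protocadherins share their constant exons and ribosomal protein messages have many near-identical copies in the genome. Just below Iglon5 stood Cyth3, an exchange factor for Arf GTPases, at 5.13, Hpca, the neuronal calcium sensor hippocalcin, at 5.07 and Rspo1, a secreted amplifier of Wnt signals, at 5.07. The lowest messages of the set, Xrcc3 and Iglon5 at 5.19, were thus not separated from the next genes by any gap larger than their spread. Iglon5 stood this low with 1 FPKM added to inputs of 0.749 to 2.04 FPKM. With nothing added, its folds in FPKM as deposited were 39.2, 41.3, 34.7 and 47.9. Among the 8 messages only Trp53i11 had higher folds in each pair.

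Adriamycin was set against no treatment within each genotype and fraction, the question being whether these messages respond to DNA damage and whether the response shows in the immunoprecipitated RNA as well. With 1 library a side there is no test, and differences are described by a step of 1 on the log2 scale. In p53+/+ inputs Creb3l1 was higher by 1.98 and Trp53i11 by 1.08, the 2 of the 8 messages past the step, and 8.43% of the genes kept were higher by that much. Zfand2a was higher by 0.84, Fbxw5 by 0.48 and Xrcc3 by 0.36, and Ccdc3 differed by -0.84, Iglon5 by -0.15 and Rab7 by -0.11, which turned to 0.01 in FPKM as deposited and 0.11 after quantile normalization. None of the 8 was lower by 1 or more, against 3.96% of the genes kept.

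In p53+/+ RIP libraries Creb3l1 was higher by 2.10, Trp53i11 by 1.15 and Zfand2a by 1.03, so 3 of the 8 were past the step upward, a step that 9.43% of the genes kept took. Ccdc3 was lower, at -1.08, past the step with 5.38% of the genes kept. Rab7 differed by 0.44, Xrcc3 by 0.43, Fbxw5 by 0.40 and Iglon5 by -0.59. Zfand2a at 0.88 in FPKM as deposited and Ccdc3 at -0.91 after quantile normalization fell inside the step, and Zfand2a reached 1.00 in input in FPKM as deposited. Creb3l1 and Trp53i11 were the messages that were higher by 1 or more in RIP and input alike, as were 6.96% of the genes kept, and none of the 8 was lower by 1 or more in both, as were 2.68%.

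In cells labelled p53-/- none of the 8 messages was past the step in input, where they ran from -0.19 (Trp53i11) to 0.30 (Xrcc3), nor in RIP, where they ran from -0.44 (Trp53i11) to -0.07 (Zfand2a and Xrcc3). Few genes were past it at all, 0.144% higher and 0.186% lower in input and 0.203% higher and 0.270% lower in RIP. All 8 values in RIP were under 0 and under the median of all genes (-0.03), although Zfand2a and Xrcc3 turned to 0.04 and 0.06 after quantile normalization. Of the genes kept, only 45.3% were above 0 in this RIP comparison. For Creb3l1 the input difference was thus -0.18 in p53-/- cells and 1.98 in p53+/+ cells, and for Trp53i11 it was -0.19 and 1.08. These were the 2 of the 8 messages whose difference had opposite signs in the genotypes in RIP and in input, as in 16.3% of the genes kept, and the gap between the responses has no test.

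**Figure D3:**
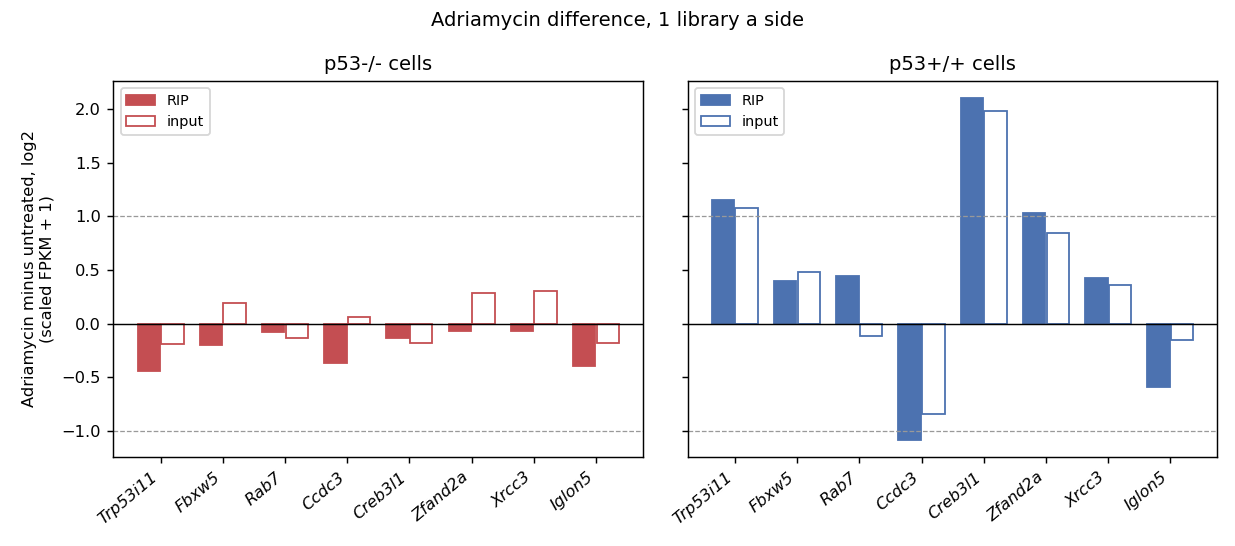
Adriamycin minus untreated on the log2 scale for each message in RIP (filled bars) and input (open bars), with p53-/- cells on the left and p53+/+ cells on the right and dashed lines at 1 and -1. In p53-/- cells every bar lies between -0.44 and 0.30, and in p53+/+ cells Creb3l1 reaches 2.10 and Ccdc3 -1.08 in RIP.

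The RIP/input ratio itself was tested for Adriamycin against untreated cells with limma over all genes kept, with genotype in the fit, 2 pairs of each treatment and 1 residual degree of freedom. None of the 8 passed the threshold of 0.05 on the Benjamini-Hochberg adjusted p from limma (0.282 to 0.815), and 5 of 11832 genes did (0.0423%), while 1893 genes and 2 of the messages (Ccdc3 and Iglon5) had an unadjusted p under 0.05. A p that misses the threshold does not show that the ratios were alike. The messages' differences ran from -0.33 for Ccdc3 (SE 0.12) to 0.31 for Rab7 (SE 0.17), next to a median of -0.02 over all genes. For Iglon5 the treated pairs (5.02 and 5.04) lay under the untreated pairs (5.22 and 5.47), as in 18.2% of the genes kept, and for the other 7 the pairs overlapped. With nothing added, the scaled folds of Iglon5 overlapped as well, at 58.2 and 94.2 in treated pairs against 61.2 and 107 in untreated pairs. The input and RIP differences of Creb3l1 in p53+/+ cells, 1.98 and 2.10, were therefore of similar size, and its ratio differed by 0.08 (SE 0.12).

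Cells labelled p53-/- were next set against p53+/+ cells, with 1 library a side and no test. In untreated inputs Ccdc3 differed by -1.61, the 1 message past the step, and 2.44% of the genes kept were lower by that much. Trp53i11 differed by -0.71, Creb3l1 by -0.63 and Iglon5 by 0.58. In Adriamycin-treated inputs Creb3l1 at -2.79 and Trp53i11 at -1.98 were past the step, with 10.8% of the genes kept. Ccdc3 stood at -0.71 there, beside p53+/+ inputs that held 6.68 FPKM with Adriamycin and 12 FPKM without.

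Untreated RIP libraries put 3 messages past the step downward, Ccdc3 at -2.56, Creb3l1 at -1.59 and Trp53i11 at -1.22, against 5.38% of the genes kept. In FPKM as deposited, where the median of all genes stood at 0.43 in place of -0.05, only Ccdc3 was past it, and Rab7, Zfand2a and Xrcc3 stood at 0.18, 0.06 and 0.03, above 0 in place of below it. Relative to the median of all genes, 7 of the 8 messages were lower in p53-/- cells under each scaling. Adriamycin-treated RIP libraries put 6 messages past the step downward, from -3.82 for Creb3l1 to -1.08 for Xrcc3, against 14.3% of the genes kept. In FPKM as deposited 3 were past it downward and Iglon5 upward, at 1.34, with a median of all genes of 0.65 in place of 0.01. Iglon5 was above 0 in all 4 comparisons (0.34 to 0.58) and under all 3 scalings.

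Markers of other cell types moved with genotype too. The summed FPKM of 16 fibroblast markers was 2741 and 2957 in RIP libraries labelled p53-/-, against 152 and 162 in those labelled p53+/+, and 895 and 762 against 109 and 185 in inputs. Of them 13 were at 1 FPKM or more in RIP libraries labelled p53-/-, against 6 in those labelled p53+/+, and Col3a1, a fibrillar collagen, had 10.3 and 10.2 FPKM in p53-/- inputs and was listed at 0 in p53+/+ inputs. Bgn alone held 2360 and 2508 FPKM of the p53-/- RIP sums, against 147 and 119 FPKM in p53-/- inputs. Pdgfra went the other way in inputs, with 0.618 and 0.515 FPKM in p53-/- cells against 1.06 and 1.15 in p53+/+ cells. The 5 primitive endoderm markers summed to 2.86 and 2.82 FPKM in p53-/- inputs, against 19.8 and 27.9 in p53+/+ inputs. The 4 neuron markers summed to 78.8 and 70.8 FPKM against 24.1 and 47.6 in the same inputs, nearly all of it Tubb3, and the 3 macrophage markers found summed to 0.299 FPKM or less in every library. Their part in the genotype differences of the 8 messages was not tested.

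The RIP/input ratio was tested between p53-/- and p53+/+ cells with limma on 2 pairs of each genotype, without treatment in the fit, which left 2 residual degrees of freedom. The mean over all 4 pairs chose the messages. The difference between genotypes is no part of that mean but comes from the same 4 ratios. Whether the choice bears on its p-values was not tested. Creb3l1 fell by 1.00 on the log2 scale (SE 0.16, limma adjusted p = 0.0258), with ratios of 5.0 and 4.95 in p53-/- pairs against 6.03 and 5.91 in p53+/+ pairs. Ccdc3 fell by 1.05 (SE 0.20, limma adjusted p = 0.0425), with 4.79 and 5.21 against 5.93 and 6.17. These were the 2 of the 8 messages past the threshold, and 2.41% of the genes kept were called lower and 0.837% higher. Those shares cover all genes, and how genes of similarly high ratio differed between genotypes is not reported here. With treatment as a second term 5 messages were called, with Trp53i11 (limma adjusted p = 0.0317), Fbxw5 (0.0259) and Rab7 (0.0463) in addition, and so were 1284 genes in place of 384. The other 6 ran from -0.73 for Rab7 (SE 0.23) to -0.13 for Iglon5 (SE 0.19), with limma adjusted p from 0.0916 to 0.742. For 7 of the 8 both p53-/- pairs lay under both p53+/+ pairs, as in 30.8% of the genes kept, and all 8 differences were below 0, as were 56.3%. The exception, Iglon5, depended on the 1 FPKM added. With nothing added its scaled folds were 58.2 and 61.2 in p53-/- pairs against 94.2 and 107 in p53+/+ pairs.

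These calls depended on the scaling of libraries. In FPKM as deposited the median difference of all genes was 0.53 in place of -0.05, 6 of the 8 messages were then above 0, and limma adjusted p was 0.422 for Ccdc3 and 0.478 for Creb3l1. After quantile normalization the differences were -1.16 and -0.92 with limma adjusted p of 0.0545 and 0.0704. Relative to the median of all genes the 8 messages were lower in p53-/- cells under each of the 3 scalings. Their values were -1.00 to -0.08 as scaled here, -0.78 to -0.05 as deposited and -1.20 to -0.14 after quantile normalization. Any median has as many genes under it as over it, and genes of similarly high ratio are not reported here. Leaving out a pair left a single pair of that genotype. Differences as scaled here are then given without a test and do not decide whether the calls held. Without the Adriamycin-treated p53-/- pair the difference was -0.84 for Ccdc3 and -1.02 for Creb3l1, and without the untreated p53-/- pair -1.26 and -0.97. Without the Adriamycin-treated p53+/+ pair it was -1.17 and -0.94, and without the untreated p53+/+ pair -0.93 and -1.06. The share of material on annotated transcripts, given above, also differed between the RIP libraries of the genotypes, and its part was not tested.

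**Figure D4:**
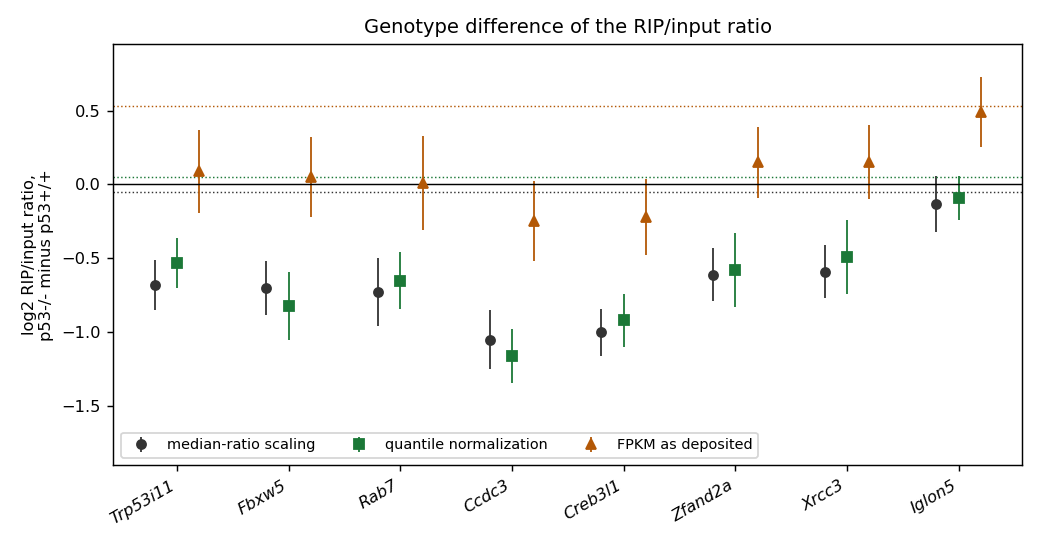
Difference of the log2 RIP/input ratio between p53-/- and p53+/+ cells for each message, with bars for the SE, under 3 scalings of the libraries, and dotted lines in the same colours for the median of all genes kept. The 8 points of each scaling lie under its own dotted line, and FPKM as deposited moves points and line upward together.

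Relatives and partners of the messages were examined to see whether the enrichment extended to their families. Of 48 genes listed, 35 were kept, of which 12 were higher and 16 lower in RIP than in input and 7 were not called by limma with the 4 cultures as a block. Over all genes kept 37.3% were called higher and 37.8% lower, and the median difference was -0.05 for the relatives and 0.00 for all genes. In FPKM as deposited the split was 4 higher and 25 lower, with 13.0% and 61.2% of all genes, and the median of all genes stood at -0.72. Without the block 17 of the 35 were called in place of 28.

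Among endosomal partners of Rab7, Mon1b, a subunit of the exchange factor that loads Rab7 with GTP, rose by 3.77 in RIP over input (SE 0.19, limma adjusted p = 1.56e-05). Vps39, a subunit of the HOPS tether that Rab7 recruits, rose by 2.15 (SE 0.14, limma adjusted p = 2.99e-05), and Rab9, a late endosome GTPase, rose by 1.55 (SE 0.29, limma adjusted p = 0.00271), with 0.54 to 2.33 in the 4 pairs. Rab5a, the early endosome GTPase, fell by 1.41, and Rab5b, Rab5c, Mon1a and Ccz1 fell by 0.34 to 0.50. Of the 10 tested there were 3 higher and 5 lower. Mon1b ranked 114 of 11832, the closest that any relative came to the 8 messages.

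In the CREB3 family 3 of 5 were higher and 2 lower, and Creb3l2, the closest relative of Creb3l1, rose by 1.11 (SE 0.10, limma adjusted p = 9.24e-05). Of 5 AN1 zinc finger genes Zfand3 was higher at 0.91 and 3 were lower. Of 12 FBXW genes and ligase partners 4 were higher, Fbxw9 most at 0.54, and 5 were lower, with the ligase subunits Rbx1 at -1.94 and Skp1 at -1.24. Of the p53-named genes Trp53i13 was higher at 0.49, Trp53inp2 lower at -0.61 and Trp53inp1 not called, and none of the 4 other IgLON genes was kept. Mon1b, Vps39, Rab9 and Creb3l2 were called higher under each of the 3 scalings, and Zfand3 was at 0.05 in FPKM as deposited (limma adjusted p = 0.854). The other relatives called higher turned below 0 in FPKM as deposited, Creb3l4 to -0.26, Atf6 to -0.36, Fbxw2 to -0.49, Fbxw9 to -0.34, Trp53i13 to -0.31, and Btrc (-0.48) and Cul1 (-0.54) were then called lower (limma adjusted p = 0.0286 and 0.0356).

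**Figure D5:**
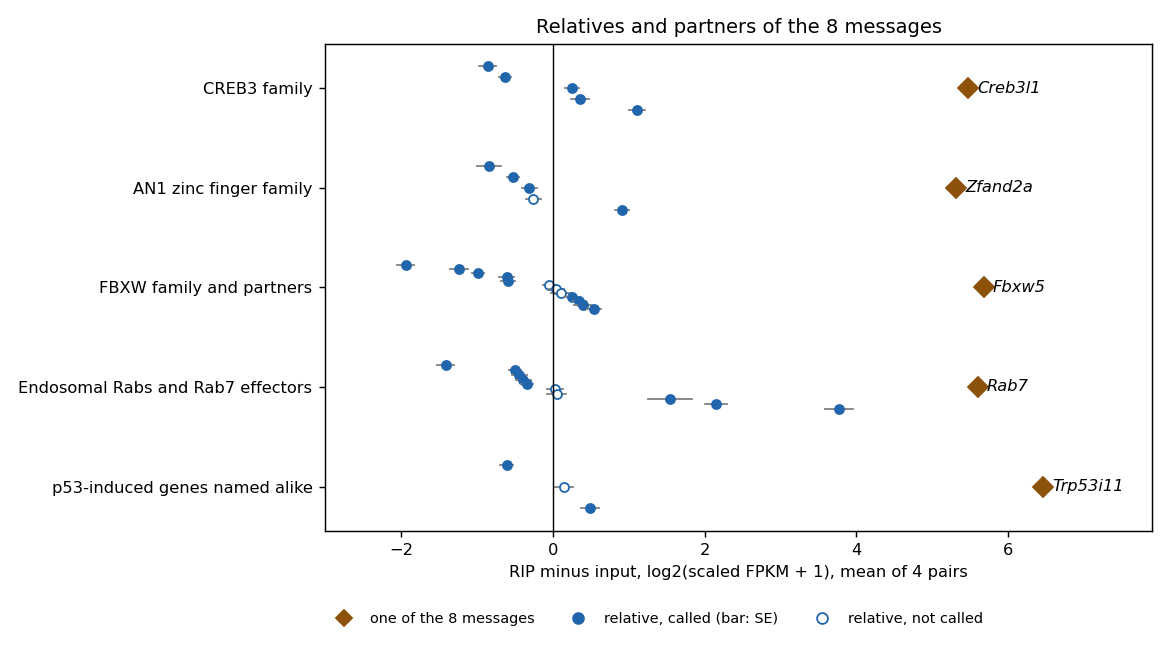
RIP minus input on the log2 scale, mean of 4 pairs, for the 35 relatives and partners kept (circles with bars for the SE, filled where called by limma) beside the message they belong with (5 diamonds, described without a test). The relatives lie between -1.94 (Rbx1) and 3.77 (Mon1b), and the diamonds between 5.31 and 6.46.

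The profile of each message over the 8 libraries was set beside those of 7340 other genes that averaged at least 5 FPKM, by the root mean square distance of centred log2 values, a measure ruled by the step between RIP and input that all of them share. Xrcc3 was nearest to Nab2, a repressor of EGR factors, at a distance of 0.24, and Zfand2a was nearest to Stk10, a kinase first described in lymphocytes, at 0.29. Creb3l1 was nearest to Hpca at 0.44 and then to Gpx3, the secreted glutathione peroxidase, at 0.49, and these had mean log2 ratios of 5.07 and 4.86. Trp53i11 was nearest to Pcdhgc3 at 0.60, Rab7 to Rpl29 at 0.29, Fbxw5 and Ccdc3 to Rspo1 at 0.39 and 0.60, and Iglon5 to 1810055G02Rik at 0.37. The second nearest was Gatc for Xrcc3 at 0.30, Fbrs for Zfand2a at 0.33, Cyth3 for Rab7 at 0.36, Ceacam1 for Iglon5 at 0.40, Rpl29 for Fbxw5 at 0.41, Lrrc61 for Ccdc3 at 0.63 and Hpca for Trp53i11 at 0.72. Among the 8 themselves the closest pairs were Xrcc3 with Zfand2a at 0.24, Fbxw5 with Zfand2a at 0.26 and Rab7 with Fbxw5 at 0.28, while Creb3l1 and Trp53i11 were each other's nearest at 0.66.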

How the data were processed

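RNA of 8 mouse embryonic stem cell libraries was prepared with TruSeq, per the labels' protocols, and processed on mm9 with Cufflinks, TopHat, TopHat2 2.0.8 and CASAVA 1.8.2, per the submitters' processing notes. The authors deposited FPKM with bounds for 30769 RefSeq records a library, and a coverage signal used here only for depth, per the file headers. Here 30227 records (98.2%) were matched to symbols of GRCm38.p6 and FPKM was summed over the records of a gene. Libraries were scaled by median ratios, 1 FPKM was added, log2 taken and genes averaging at least 1 FPKM kept. Limma 3.58.1 in R 4.3.3 (trend, Benjamini-Hochberg, threshold 0.05) was fitted over all genes kept and tested on simulated data. Genes were named as the 8 messages, the next 5 by ratio, the nearest 2 by profile, overlapping genes and the listed relatives. The messages and lists were chosen with earlier results of these data known. Alternatives were other scalings, pseudocounts of 0.1 and 5 FPKM, other filters, fits without each pair, no block, a treatment term and single records. Some results are not reported here. Depth is estimated from coverage, read counts were not used, and precision beyond the authors' bounds is unknown.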

Additional observations from a re-analysis of the deposited data

Results flagged for a closer look

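The RIP/input ratio differed between genotypes for 2 of the 8 messages by limma, Ccdc3 by -1.05 and Creb3l1 by -1.00 on the log2 scale (p53-/- minus p53+/+), lower in both p53-/- pairs than in both p53+/+ pairs. Of the genes kept 2.41% were called lower and 30.8% had pairs that lay apart in that direction, and the differences of genes of similarly high ratio are not reported here. Both calls were lost in FPKM as deposited (limma adjusted p = 0.422 for Ccdc3 and 0.478 for Creb3l1) and after quantile normalization (0.0545 and 0.0704). The RIP libraries of the genotypes also differed in their scaling factors and in fibroblast marker RNA, most of it Bgn in p53-/- cells. The part of these differences was not tested. The Adriamycin difference in input had opposite signs in the genotypes, in RIP as well, for Creb3l1 and Trp53i11, as in 16.3% of the genes kept. In p53-/- inputs it was small, at -0.18 for Creb3l1 and -0.19 for Trp53i11. It was larger in p53+/+ cells than in p53-/- cells by 2.16 for Creb3l1 and by 1.27 for Trp53i11. With 1 library a group, that gap was not tested.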

How the results depend on the processing

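All 8 messages stayed among the 20 highest mean ratios under the other scalings and filters, and 7 of them did with 0.1 or 5 FPKM added. The median of their mean ratios, 5.50, was 4.63 in FPKM as deposited and 4.83 with 5 FPKM added. Without the replicate block 17 relatives were called in place of 28. For the ratio by genotype 384 genes and 2 messages were called. Those counts were 4801 and 0 in FPKM as deposited, 45 and 0 after quantile normalization, 0 and 0 without a filter, and 1284 and 5 with a treatment term. With 5 FPKM added 226 genes, and with 0.1 FPKM added 1 message (Creb3l1), were called, and leaving out a pair gave 5 to 1236 genes and 0 to 2 messages. In FPKM as deposited the difference turned to 0.09 for Trp53i11, 0.05 for Fbxw5, 0.01 for Rab7, 0.15 for Zfand2a and Xrcc3 and 0.49 for Iglon5. Iglon5 also turned to 0.23 with 5 FPKM added, and was at -0.63 with 0.1 FPKM added (limma adjusted p = 0.0938). It ran from -0.35 to 0.09 when a pair was left out, above 0 without the untreated p53+/+ pair. For the ratio by Adriamycin 5 genes were called, against 14 as deposited, 2 after quantile normalization, 8 and 2 with 0.1 and 5 FPKM added, 2 without a filter and 118 at a mean of 5 FPKM or more. Its difference turned for Creb3l1 to -0.06 as deposited, for Fbxw5, Zfand2a and Xrcc3 to 0.12, 0.24 and 0.21 after quantile normalization, and for Zfand2a to 0.18 with 5 FPKM added. Leaving out a pair left this comparison no residual degrees of freedom, so values without a test ran from -0.25 to 0.07 for Trp53i11, -0.37 to 0.19 for Zfand2a and -0.37 to 0.07 for Xrcc3. Messages past the step were 1 in place of 2 with 5 FPKM added for Adriamycin in p53+/+ inputs, 2 and 0 in place of 1 with 0.1 and 5 FPKM added between untreated inputs of the genotypes, and 1 in place of 3 as deposited between their untreated RIP libraries. The cause of these shifts was not tested. Of 632 alternative values for single messages 602 kept their sign, 28 had the opposite sign and 2 stood at 0.00. With 1 library a group, culture cannot be told apart from genotype or treatment.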
